A study of Mus musculus with 12 samples.

Results

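Translation initiation factors are the proteins that bring the ribosome to a messenger RNA and place it on the start codon. They are described here as the genes whose annotated symbol begins with Eif followed by a digit from 1 to 6, leaving out the eIF2 kinases Eif2ak1 to Eif2ak4. The rule found 43 genes among the 18193 that had a probe set with 1 symbol. Of the 43, 42 passed a filter on low signal and were among the 12190 genes tested. The filter asked only for a mean over all 12 arrays above the 40th percentile, so it used no group. Where a gene had several probe sets, the one with the highest mean of log2(signal + 16) over the 12 arrays, called the brightest here, stood for it. Probe sets that carry several symbols, those of Eif3j among them, were not used here.

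The cells were splenic follicular B cells of 8-week-old male 129SvEv mice, sorted as B220+ AA4.1- CD23hi CD21int. They came from mice labelled Zfx cko or wild type and were cultured in 10 µg/mL anti-IgM for 0, 2 or 12 h. Anti-IgM binds the surface antibody of B cells and so mimics an encounter with antigen. This gave 6 groups of 2 arrays, namely cko at 0, 2 and 12 h and wild type at 0, 2 and 12 h. All 6 groups share the strain, sex, age, sort and culture medium, and the sources used here do not give how the Zfx allele was deleted or with which Cre driver. Zfx encodes a zinc-finger transcription factor of the X chromosome. From each RNA, 100 ng was amplified in 2 rounds, and 10 µg was put on a whole-genome mouse array. Labelled RNA was hybridized in duplicate, and nothing in the sources used here says that the duplicates came from different mice. Spread between duplicates, the base of all p-values here, may therefore be technical.

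Initiation runs in steps that the gene names follow. eIF2, bound to GTP, carries the initiator transfer RNA to the small ribosomal subunit, and eIF2B is the exchange factor that recharges eIF2 with GTP. eIF3 is the large scaffold on the small subunit, while eIF1 and eIF1A keep it open for scanning. eIF4F, made of the cap-binding protein eIF4E, the helicase eIF4A and the scaffold eIF4G, brings in the mRNA, and the 4E-binding proteins hold eIF4E back until mTORC1 phosphorylates them. eIF5 and eIF5B act when the start codon is found and the large subunit joins, and eIF6 keeps free large subunits from joining too early. Resting B cells make little protein, and their ribosome and translation genes are known to be induced when they are activated.

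Signals were used on a log2(signal + 16) scale, so a difference of 1 is a doubling of signal plus 16, and the change of dim genes is understated. Values written as a difference ± SE compare groups of n = 2 arrays on that scale. A gene was called, and is said to have risen, fallen, or been higher or lower, at an adjusted p under 0.05 over all 12190 genes (limma with Benjamini-Hochberg adjustment, two-sided). The number of arrays limits the precision. In bulk RNA, fewer cells of a type and less RNA per cell cannot be told apart.

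Some properties of the arrays bear on all values below. The 12 arrays shared a trimmed mean signal of 250, with medians between 29.1 and 40.3. The actin 5′ control signal was 8.41 to 19.1% of the 3′ signal in the cko 2 h, cko 12 h and wild-type 2 h groups, and 1.8 to 3.33% in the cko 0 h, wild-type 0 h and wild-type 12 h groups. This division is balanced in, or does not touch, 5 comparisons, namely cko against wild type at 0 h and 2 h, cko 12 h against 2 h, the 12 h response of wild type and the 2 h interaction. The other 6 cross it, namely both 2 h responses, the 12 h response of cko, wild-type 12 h against 2 h, cko against wild type at 12 h and the 12 h interaction. The ratio itself was still unequal in the first 5. At 0, 2 and 12 h it was 1.8 to 1.99%, 10.6 to 10.8% and 19 to 19.1% in cko. In wild type it was 3.27 to 3.33%, 8.41 to 8.51% and 2.11 to 2.27%. The brightest Zfx probe set gave 2189 and 2618 at 0 h, 974 and 1035 at 2 h and 1237 and 1341 at 12 h on the cko arrays, against 982 and 1041, 809.6 and 789.6, and 1012 and 962 on the wild-type arrays at the same times. It was higher on the cko arrays at all 3 times, and since the deleted part of the gene is not given, it does not check the labels. The signal summed over 6 B cell markers was 71763 to 72781 (0 h), 21975 to 22342 (2 h) and 33086 to 33755 (12 h) in cko, and 61783 to 62381, 22677 to 24297 and 26954 to 27172 in wild type. Over 6 myeloid markers it was 7848 to 8000, 1849 to 2030 and 1892 to 1917 in cko, and 17737 to 18314, 11013 to 11153 and 6172 to 7019 in wild type, with Itgam under 50 in every group. Over 8 T and NK cell markers it was 850 to 2877 in cko and 503 to 2808 in wild type, with Cd4 under 50 in every group. The part of these levels in the differences below was not tested.

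After anti-IgM, more initiation factor genes rose than fell, in both genotypes and at both times. At 2 h, 23 members rose and 10 fell in cko, where 23.8% of all genes rose and 39.2% fell. In wild type at 2 h, 19 rose and 11 fell, where 23.5% of all genes rose and 36.2% fell. At 12 h against 0 h, 22 rose and 10 fell in cko, against backgrounds of 25.9% and 33.1%. In wild type at 12 h, 28 rose and 6 fell, against backgrounds of 24.8% and 23.1%. The median difference of the members was 0.27 (2 h) and 0.47 (12 h) in cko, beside medians over all genes of -0.32 and -0.20. In wild type it was 0.09 and 0.47, beside -0.24 and 0.03. Members that rose at least 2-fold numbered 12 and 13 in cko, and 10 and 8 in wild type, at 2 h and 12 h, and those that fell at least 2-fold numbered 3 and 0 in cko, and 2 and 0 in wild type. The share of all genes that moved at least 2-fold is not given here, so these 2-fold counts have no background beside them.

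Scaling each array to a common median moved these backgrounds. The median over all genes then stood at 0.01 (2 h) and 0.16 (12 h) in the cko responses, 0.00 in the wild-type 2 h response and 0.02 in the wild-type 12 h response. With it, the share of member calls that were rises went to 83.8% at 2 h and 91.4% at 12 h in cko, from 69.7% and 68.8% as reported, and to 75% at 2 h in wild type, from 63.3%. Over all genes the share of rises was then 55.2% and 65.6% in cko, in place of 37.8% and 43.9%, and 52.6% at 2 h in wild type, in place of 39.4%.

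**Figure D1:**
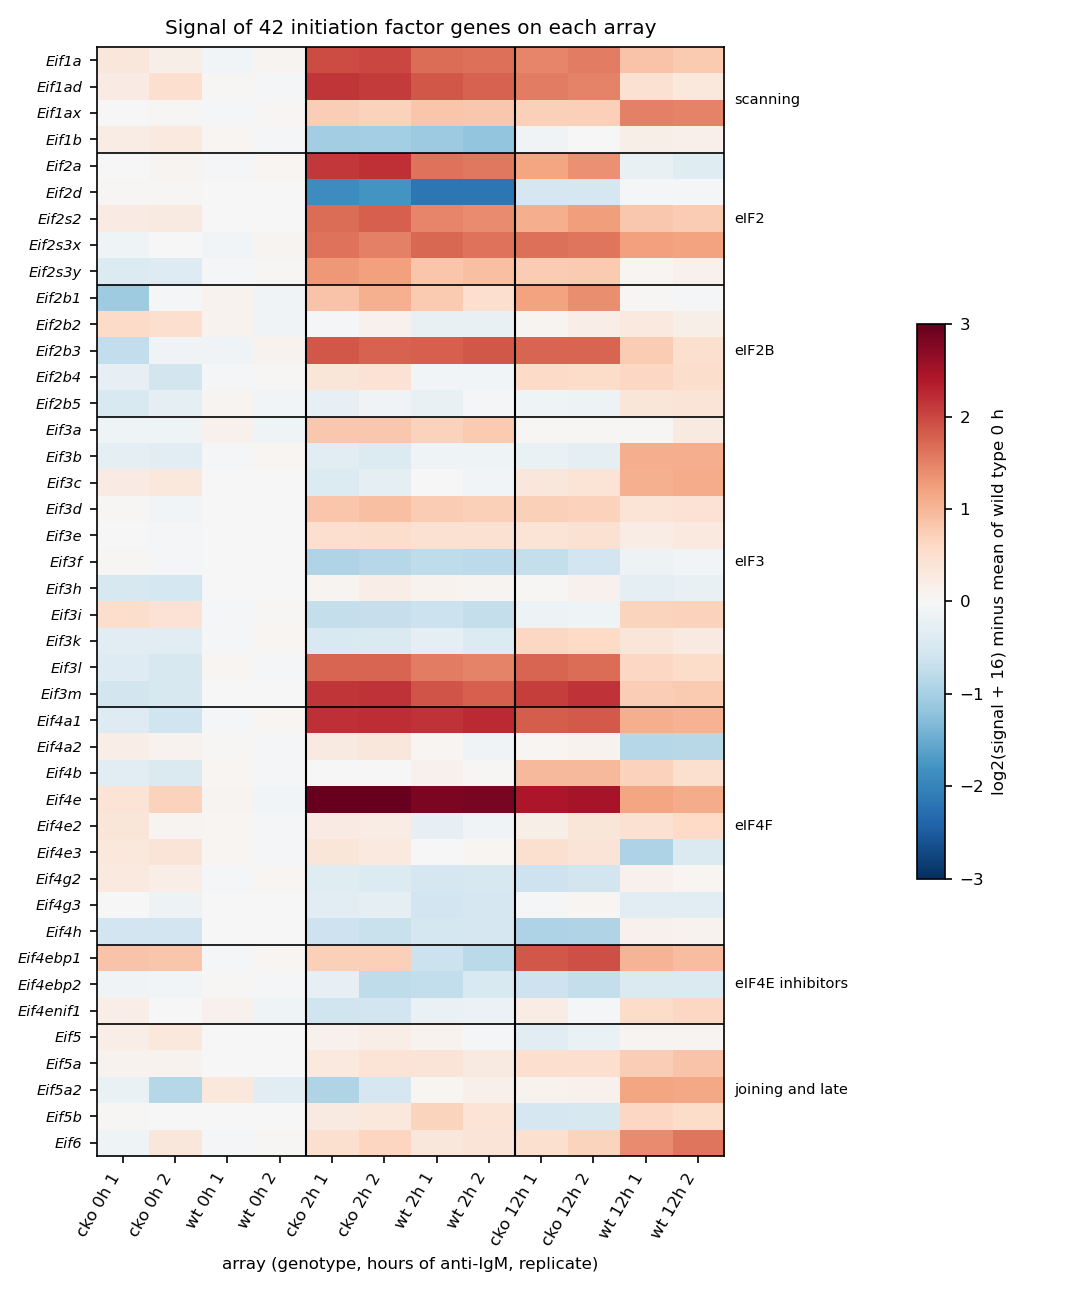
Each row is 1 of the 42 tested genes, grouped by role, and each column is 1 array (genotype, hours in anti-IgM, replicate), with colour giving log2(signal + 16) minus the gene's wild-type 0 h mean, red above and blue below. Eif4e, Eif4a1, Eif3m and Eif2b3 are red on all 4 arrays at 2 h, and Eif2d and Eif1b are blue on the same arrays and near 0 on the 2 wild-type arrays at 12 h.

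The cap-binding subunit and 1 of the helicases of eIF4F made the largest rises among the members at 2 h in wild type. Eif4e, on chromosome 3, encodes the protein that holds the mRNA cap. Its signals were 445 and 542 at 0 h, 2953 and 3029 at 2 h and 1837 and 1913 at 12 h in cko, against 349 and 314, 2431 and 2490.3, and 769.7 and 740.4 in wild type. The 2 h arrays were far above the 0 h arrays in both genotypes, and at 12 h the cko arrays stayed above both wild-type arrays. At 2 h it rose by 2.57 ± 0.09 in cko (adjusted p = 1.43e-11) and by 2.83 ± 0.09 in wild type (adjusted p = 7.91e-12). From 2 h to 12 h it fell in cko (-0.67 ± 0.09, adjusted p = 3.05e-05) and in wild type (-1.68 ± 0.09, adjusted p = 1.85e-09), so that 12 h against 0 h still gave 1.90 ± 0.09 in cko and 1.15 ± 0.09 in wild type. The genotype difference at 12 h rests on the probe set chosen. Another Eif4e probe set, nearly as bright (mean signal 1270.5, against 1484.5), had 12 h means of 1380.5 in cko and 1375.3 in wild type. Its 2 h means were 1921.5 in cko and 1986.4 in wild type.

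Eif4a1 and Eif4a2 encode paralogous RNA helicases that unwind the leader of the mRNA, and their courses differed. Eif4a1, on chromosome 11, had signals of 1232 and 1054 at 0 h, 7396 and 7594 at 2 h and 5772 and 5865 at 12 h in cko, against 1540.4 and 1697, 7269 and 7643, and 3452 and 3341 in wild type. At 2 h it rose by 2.70 ± 0.07 in cko (adjusted p = 1.23e-12) and by 2.19 ± 0.07 in wild type (adjusted p = 1.03e-11), and at 12 h it was still up by 2.34 ± 0.07 in cko (adjusted p = 7.03e-12) and by 1.06 ± 0.07 in wild type (adjusted p = 2.87e-08). The 0 h arrays lay below all others in each genotype. Eif4a2, on chromosome 16, had signals of 7546 and 7170.4, 7950.4 and 8323, and 6891 and 7066 in cko at 0, 2 and 12 h, against 6733 and 6500.4, 6893 and 6125, and 3648 and 3684 in wild type. The 12 h wild-type arrays were the lowest of the 12, and no other group came near them. In wild type it gave -0.03 ± 0.06 at 2 h (adjusted p = 0.733) and fell at 12 h (-0.85 ± 0.06, adjusted p = 3.41e-08). In cko it gave 0.14 ± 0.06 at 2 h (adjusted p = 0.0472), a call lost without any of 10 arrays, namely all but the wild-type 2 h arrays (0.11 to 0.18, adjusted p 0.0507 to 0.23), and -0.08 ± 0.06 at 12 h (adjusted p = 0.293).

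**Figure D2:**
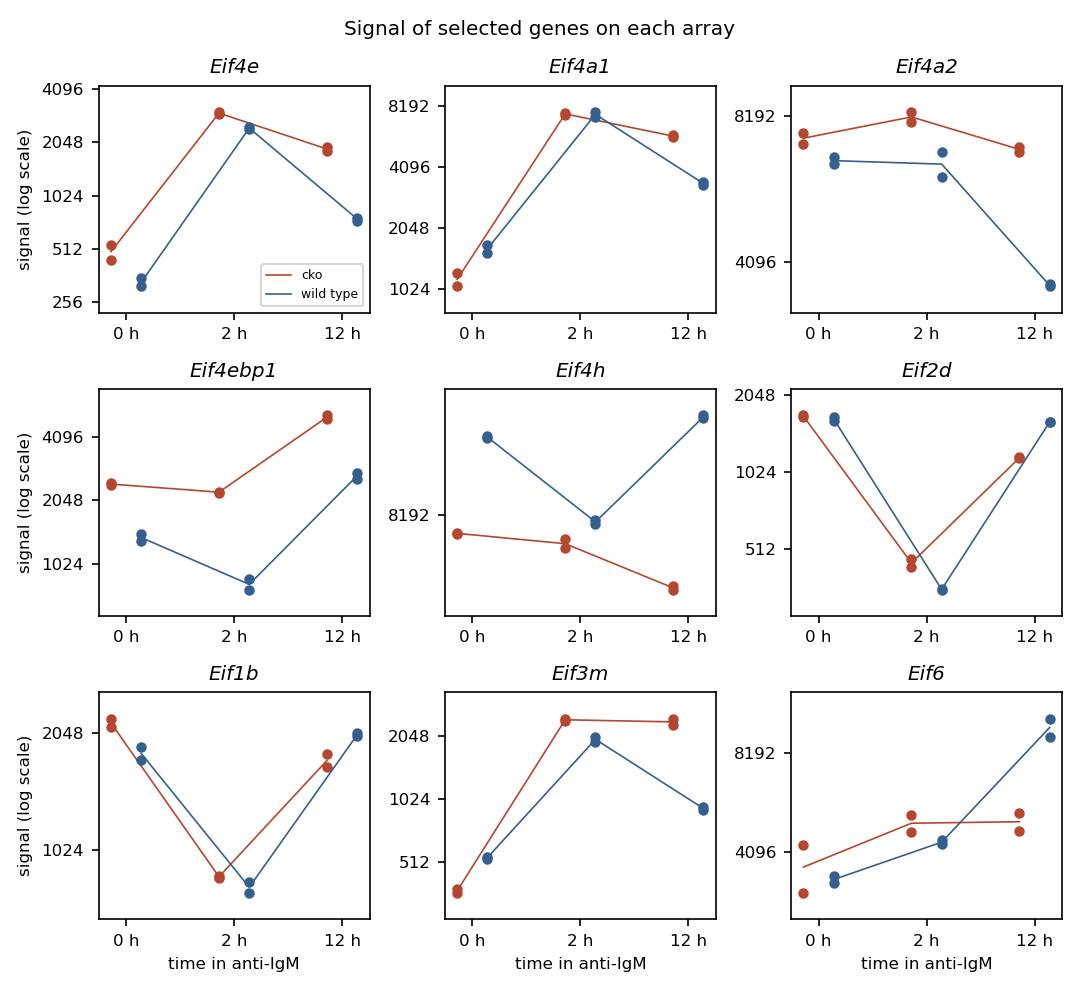
Signal on a log axis at 0, 2 and 12 h of anti-IgM for 9 genes, with each point 1 array, cko in red set to the left of wild type in blue, and lines joining group means. Eif4e, Eif4a1 and Eif3m peak or plateau at 2 h, Eif2d and Eif1b dip at 2 h, Eif4ebp1 lies higher on the cko arrays at all 3 times, and Eif6 is highest on the 2 wild-type arrays at 12 h (9131 and 10369).

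The other members of the cap-binding complex moved less. Eif4h, whose product stimulates eIF4A, had signals of 7588 and 7570.4, 7389.9 and 7129, and 5994 and 6085 in cko at 0, 2 and 12 h, against 11254 and 11372, 7886 and 8012, and 12387 and 12233 in wild type. All 6 cko arrays lay below all 6 wild-type arrays. It fell in wild type at 2 h (-0.51 ± 0.04, adjusted p = 1.58e-07), while cko gave -0.06 ± 0.04 (adjusted p = 0.231). Eif4b, which also stimulates the helicase, rose between 2 h and 12 h in cko (0.98 ± 0.08, adjusted p = 2.73e-07), and its group means ran from 999 (cko 0 h) to 2566 (cko 12 h). Eif4g2, an eIF4G relative that does not bind eIF4E, fell at 12 h in cko (-0.83 ± 0.05, adjusted p = 5.21e-09), and its group means ran from 10696 (cko 12 h) to 19095 (cko 0 h). At 12 h in wild type, Eif4e3 fell (-0.68 ± 0.14, adjusted p = 0.00095), as did Eif4g3 (-0.35 ± 0.09, adjusted p = 0.0045), a call lost when its probe sets were averaged (-0.15). Eif4e3 is a divergent cap-binding relative of Eif4e, with group means from 225 (wild type 12 h) to 499.5 (cko 12 h), and Eif4g3 is a scaffold paralogue, with group means from 613 (wild type 2 h) to 894.5 (cko 12 h). Eif4e2 encodes a cap-binding protein that represses translation, with group means from 1325 (wild type 2 h) to 2145 (wild type 12 h). Eif4a3, the helicase of the exon junction complex, gave signals of 1 to 4.9 on the 12 arrays and was the 1 member that failed the filter.

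Across the cap-binding group of 9 tested genes, 4 rose and 2 fell at 2 h in cko, and 2 rose and 3 fell in wild type. At 12 h, 3 rose and 2 fell in cko, and 5 rose and 3 fell in wild type. At 2 h these are 44.4% higher and 22.2% lower in cko and 22.2% and 33.3% in wild type, beside 23.8% and 39.2%, and 23.5% and 36.2%, of all genes. At 12 h they are 33.3% and 22.2% in cko and 55.6% and 33.3% in wild type, beside 25.9% and 33.1%, and 24.8% and 23.1%. The wild-type counts at 2 h lie near the background. Counts of the other role groups have the same backgrounds and rest on 3 to 11 genes each. With a term for the division by the actin ratio, in a model with 1 response shared by both genotypes, the 2 h response was 1.82 for Eif4e (adjusted p = 2.42e-06) and 1.43 for Eif4a1 (adjusted p = 5.61e-05), but 0.39 for Eif4h (adjusted p = 0.0718) and -0.63 for Eif4a2 (adjusted p = 0.00125). In that model the 12 h response was 0.05 for Eif4g2 (adjusted p = 0.612). The division term there is set by how far the genotype difference at 12 h departs from that at 0 h and 2 h. It thus cannot be told apart from a genotype difference particular to 12 h. Responses with the term, here and below, are therefore not responses corrected for the actin ratio.

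The windows around the annotated starts were searched for 3 sets of letters on both strands, since Myc and related leucine-zipper proteins bind the E-box CACGTG and initiation factor genes are known Myc targets. The windows run from 250 bases before to 50 bases after a start (RefSeq, GRCm38.p6), and 34 of the 43 genes had at least 1. Eif1a, Eif2b3, Eif3e, Eif3h, Eif3i, Eif4e3, Eif4ebp1, Eif4g2 and Eif6 had no entry. CACGTG was found in 9 of the 34 (26.5%), beside 11.5% of 9855 tested genes and 8.09% of 27025 genes in the table. AGGCCT, letters within the motif known for ZFX, was found in 3 (8.82%), beside 12.7% and 11.6%. TGATGNAA, the composite CEBP and ATF element, was found in 1 (2.94%), beside 2.8% and 4.51%. No match overlapped a match to another of the 3 motifs. Of the 9 genes with CACGTG, Eif4e, Eif4a1, Eif5a and Eif3a rose at 2 h in wild type, Eif1b, Eif3f, Eif4h and Eif3k fell, and Eif5a2 gave 0.11. A match is a description of these letters and not of binding.

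Stretches around CACGTG are shown for the genes that rose at 2 h in wild type with the letters upstream of a start, and for the 2 that fell most, so that the sites of rising and falling genes can be read side by side. Letters are 5′ to 3′ on the gene's strand, with CACGTG in capitals. The choice was made after the values were seen. The stretches of Eif4e and Eif5a lie inside the gene's annotated span, upstream of a later start, and are kept to 30 bases.
Eif4e, chr3:138527192-138527221, plus strand: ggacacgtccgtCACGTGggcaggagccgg
Eif4a1, chr11:69672577-69672642, minus strand: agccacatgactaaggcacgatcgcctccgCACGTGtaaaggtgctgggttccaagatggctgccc
Eif5a, chr11:69921443-69921472, minus strand: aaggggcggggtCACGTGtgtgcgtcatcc
Eif1b, chr9:120492552-120492605, plus strand: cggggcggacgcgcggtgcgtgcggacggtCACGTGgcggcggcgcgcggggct
Eif3f, chr7:108934317-108934382, plus strand: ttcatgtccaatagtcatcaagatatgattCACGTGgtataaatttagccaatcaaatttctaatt

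The inhibitors of eIF4E held the largest genotype difference among the members at 0 h and at 2 h. Eif4ebp1 encodes 4E-BP1, which blocks the eIF4G site of eIF4E until mTORC1 phosphorylates it. Its signals were 2479 and 2425 at 0 h, 2234 and 2252 at 2 h and 5019 and 5218 at 12 h in cko, against 1312 and 1413, 861 and 768, and 2775 and 2600.2 in wild type. The cko arrays lay above the wild-type arrays at each time, with no overlap. It was higher in cko by 0.84 ± 0.07 at 0 h (adjusted p = 2e-06), by 1.45 ± 0.07 at 2 h (adjusted p = 1.57e-08) and by 0.93 ± 0.07 at 12 h (adjusted p = 9.3e-08). At 2 h it gave -0.13 ± 0.07 in cko (adjusted p = 0.131) and fell in wild type (-0.73 ± 0.07, adjusted p = 5.32e-07), and from 2 h to 12 h it rose by 1.18 ± 0.07 in cko (adjusted p = 8.36e-09) and by 1.70 ± 0.07 in wild type (adjusted p = 1.35e-10). The difference between the 2 h responses, cko minus wild type, was 0.60 ± 0.10 (adjusted p = 0.000861). With the division term the 2 h response of Eif4ebp1 was -0.21 (adjusted p = 0.469). Its genotype difference, whose value in that model comes from the 0 h and 2 h arrays, was 1.14 (adjusted p = 1.06e-05). The 2 h value in cko depends on the probe set. Another Eif4ebp1 probe set (mean signal 843.1, against 2446.3) had cko means of 407.5, 1021.6 and 2340.1 at 0, 2 and 12 h. In wild type its means were 402.6, 269.8 and 617.

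Eif4ebp2, the paralogue of Eif4ebp1, had signals of 677 and 687, 609 and 422, and 470.4 and 434 in cko at 0, 2 and 12 h, against 745 and 710.3, 433 and 528, and 533 and 535 in wild type. The 0 h arrays were the highest in each genotype, and the 2 cko arrays at 2 h lay far apart. It gave -0.42 ± 0.14 at 2 h (adjusted p = 0.0208) and -0.58 ± 0.14 at 12 h (adjusted p = 0.00318) in cko, and -0.59 ± 0.14 (adjusted p = 0.00259) and -0.43 ± 0.14 (adjusted p = 0.0219) in wild type. These 4 falls rest on the probe set chosen. Another one, whose mean signal was as high (568.1, against 565.3 for the one used), gave 0.82 at 2 h and 0.97 at 12 h in cko, both called higher, and 0.98, called higher, and 0.05, not called, in wild type. Averaging the gene's probe sets gave 0.03 and 0.09 in cko, and -0.03 and -0.28 in wild type, and median scaling brought the cko value at 12 h to -0.17. The cko fall at 2 h was lost without cko 2 h replicate 2 (-0.16, adjusted p = 0.323) or either cko 0 h array (-0.41 to -0.43), and the wild-type fall at 12 h without any of the 4 wild-type arrays at 0 and 12 h (-0.40 to -0.47). Eif4enif1 encodes 4E-T, which carries eIF4E to processing bodies. Its signals were 708 and 620.1, 401 and 406, and 709.9 and 592 in cko, against 664 and 562, 533 and 537, and 909 and 953 in wild type. The 2 h cko arrays were the lowest of the 12. It fell at 2 h in cko (-0.70 ± 0.11, adjusted p = 8.06e-05), gave -0.19 ± 0.11 in wild type (adjusted p = 0.173), and with the division term the shared response was -0.07 (adjusted p = 0.844).

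In the ternary complex group, 4 of 5 genes rose at 2 h in each genotype and 1 fell. Eif2s2, the beta subunit of eIF2, had group means from 2275 (wild type 0 h) to 7580.4 (cko 2 h). Eif2s3x, the gamma subunit gene of the X chromosome, rose at 12 h in wild type by 1.22 ± 0.08 (adjusted p = 1.35e-08), and its group means ran from 797 (cko 0 h) to 2676 (wild type 2 h). Its Y-linked homologue Eif2s3y had group means from 1058 (cko 0 h) to 3385 (cko 2 h). Eif2a, which is not a subunit of eIF2 but binds initiator transfer RNA on its own, had signals of 257 and 270.5, 1155 and 1215, and 599 and 686 in cko at 0, 2 and 12 h, against 243 and 265, 820.3 and 789.8, and 216 and 194 in wild type. It was high on the 2 h arrays of both genotypes, and by 12 h only the cko arrays remained above the 0 h level. It rose at 2 h by 2.10 ± 0.11 in cko (adjusted p = 4.69e-10) and by 1.60 ± 0.11 in wild type (adjusted p = 1.08e-08), and fell from 2 h to 12 h in cko (-0.87 ± 0.11, adjusted p = 1.06e-05) and in wild type (-1.90 ± 0.11, adjusted p = 2.55e-09). The shared 2 h response of Eif2a with the division term was 0.58 (adjusted p = 0.052), and from 2 h to 12 h it was -0.74 (adjusted p = 0.000918). The cko course of Eif2a rests on the probe set chosen. The other one that passed the filter (mean signal 423.9, against 559.2) had cko means of 548, 466.6 and 409.1 at 0, 2 and 12 h. In wild type its means were 334.3, 476 and 309.3.

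Eif2d was the member with the largest fall in both genotypes at 2 h. Its product, once called ligatin, can place transfer RNA in the ribosome without GTP and takes part in reinitiation and recycling. Its signals were 1676 and 1700.2 at 0 h, 434 and 465 at 2 h and 1155 and 1165 at 12 h in cko, against 1621 and 1670.5, 355 and 353, and 1605 and 1599 in wild type. Only the 2 h arrays were low, and the wild-type arrays at 12 h were close to those at 0 h. It fell at 2 h in cko (-1.87 ± 0.07, adjusted p = 3.09e-11) and in wild type (-2.17 ± 0.07, adjusted p = 1.03e-11), and rose from 2 h to 12 h by 1.34 ± 0.07 in cko (adjusted p = 3.3e-09) and by 2.13 ± 0.07 in wild type (adjusted p = 2.4e-11). The 12 h difference from 0 h was -0.53 ± 0.07 in cko (adjusted p = 1.86e-05) and -0.04 ± 0.07 in wild type (adjusted p = 0.702). All 4 Eif2d probe sets that passed the filter were called lower at 2 h in both genotypes (-1.34 to -2.15 for the other 3 in cko, and -0.87 to -2.19 in wild type). With the division term the shared 2 h fall was -1.38 (adjusted p = 1.03e-05), and the shared 12 h difference from 0 h was 0.03 (adjusted p = 0.816).

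Among the 5 eIF2B subunit genes, 3 rose and 1 fell at 2 h in cko, and 2 rose and 1 fell in wild type. Eif2b3 encodes the gamma subunit, part of the catalytic core of the exchange factor. Its signals were 60 and 103, 448 and 414, and 407 and 414 in cko at 0, 2 and 12 h, against 103 and 120.3, 424 and 444, and 201 and 162 in wild type. The 0 h arrays were lowest in both genotypes, and at 12 h the arrays of each genotype lay between their 0 h and 2 h levels, in cko close to those at 2 h. It rose at 2 h by 2.23 ± 0.19 in cko (adjusted p = 1.1e-07) and by 1.82 ± 0.19 in wild type (adjusted p = 1.11e-06). At 12 h it was up by 2.16 ± 0.19 in cko (adjusted p = 2.05e-07), and in wild type it fell between 2 h and 12 h (-1.20 ± 0.19, adjusted p = 8.14e-05). Eif2b1, the alpha subunit of the regulatory part, had signals of 169 and 352, 682 and 792, and 868 and 1002 in cko, against 396 and 345, 648 and 533, and 381 and 362 in wild type. The 2 cko arrays at 0 h differed more than 2-fold. Since all groups share 1 estimate of the spread, this widens the error of every Eif2b1 difference, those of wild type included. It rose at 2 h by 1.53 ± 0.23 in cko (adjusted p = 4.17e-05) and gave 0.65 ± 0.23 in wild type (adjusted p = 0.0257), a call lost without wild-type 2 h replicate 1 (0.51) or wild-type 0 h replicate 2 (0.55). With the division term Eif2b3 gave 0.03 from 2 h to 12 h (adjusted p = 0.911) and 0.73 at 12 h against 0 h (adjusted p = 0.00893). The shared 2 h response was then 0.70 for Eif2b3 (adjusted p = 0.085) and -0.33 for Eif2b1 (adjusted p = 0.578). Eif2b2, Eif2b4 and Eif2b5, the beta, delta and epsilon subunits, had group means of 3145 (wild type 2 h) to 5337 (cko 0 h), 1611 (cko 0 h) to 3184 (wild type 12 h) and 361 (cko 0 h) to 618 (wild type 12 h).

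The eIF3 subunits did not move together. Of 11 tested, 6 rose and 3 fell at 2 h in cko, and 5 rose and 3 fell in wild type. Eif3m, on chromosome 2, had signals of 365 and 383, 2428 and 2469.9, and 2304 and 2481 in cko at 0, 2 and 12 h, against 533 and 545, 2035 and 1914, and 912 and 936 in wild type. The cko arrays were below wild type at 0 h and above it at 2 h and 12 h, with no overlap. It rose at 2 h by 2.66 ± 0.07 in cko (adjusted p = 1.3e-12) and by 1.84 ± 0.07 in wild type (adjusted p = 5.18e-11), and at 12 h against 0 h by 2.63 ± 0.07 in cko (adjusted p = 2.68e-12) and by 0.76 ± 0.07 in wild type (adjusted p = 8.86e-07). Eif3l, which binds Eif3k in the complex, had signals of 618 and 579, 2750.1 and 2758, and 2758 and 2644 in cko, against 848 and 777, 2373 and 2316, and 1258 and 1192 in wild type. It lay low at 0 h in both genotypes, and only the wild-type arrays came down between 2 h and 12 h. Its 12 h response was 2.14 ± 0.07 in cko (adjusted p = 1.23e-11) and 0.58 ± 0.07 in wild type (adjusted p = 9.45e-06).

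Other eIF3 genes fell at 2 h. Eif3f, a subunit with an MPN fold, fell in cko (-0.87 ± 0.05, adjusted p = 2.77e-09) and in wild type (-0.78 ± 0.05, adjusted p = 1.22e-08). At 12 h it was still down in cko (-0.63 ± 0.05, adjusted p = 1.16e-07), and its group means ran from 12289 (cko 2 h) to 22696 (wild type 0 h). Eif3i, a WD-repeat subunit, fell at 2 h in cko (-1.20 ± 0.05, adjusted p = 6.85e-11) and was still below 0 h at 12 h (-0.63 ± 0.05, adjusted p = 8.39e-08). Its other probe set was called the other way at 12 h in cko, with group means of 6996 at 0 h and 8303 at 12 h. In wild type Eif3i rose from 2 h to 12 h by 1.37 ± 0.05 (adjusted p = 4.77e-11), and its group means ran from 4655 (cko 2 h) to 12254 (wild type 12 h). Eif3k rose in cko from 2 h to 12 h by 1.04 ± 0.07 (adjusted p = 1.43e-08), with group means from 2144 (cko 2 h) to 4439 (cko 12 h). Eif3a, the largest scaffold subunit, fell in cko over the same interval (-0.78 ± 0.08, adjusted p = 2.38e-06), with group means from 3006 (cko 0 h) to 5788 (cko 2 h). Group means ran from 1905 (cko 2 h) to 5215 (wild type 12 h) for Eif3b, from 4739 (cko 2 h) to 12711 (wild type 12 h) for Eif3c, from 2051 (cko 0 h) to 3831 (cko 2 h) for Eif3d, from 8719 (cko 0 h) to 12762 (cko 2 h) for Eif3e and from 4974 (cko 0 h) to 7808 (cko 2 h) for Eif3h. With the division term the shared 2 h response was 0.79 for Eif3m (adjusted p = 0.0271), -0.36 for Eif3f (adjusted p = 0.0207) and 0.11 for Eif3i (adjusted p = 0.671), and the shared 12 h response was 0.96 for Eif3m (adjusted p = 0.000471), 0.75 for Eif3l (adjusted p = 0.000988), 0.55 for Eif3i (adjusted p = 0.00179) and -0.15 for Eif3f (adjusted p = 0.135).

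Of the 4 tested scanning genes, 3 rose and 1 fell at 2 h in each genotype. Eif1ad, an eIF1A-domain relative known from ribosome maturation, had signals of 396 and 474, 1518 and 1471, and 982 and 962 in cko at 0, 2 and 12 h, against 336 and 324, 1239.5 and 1159, and 459 and 412 in wild type. The 12 h arrays lay well below the 2 h arrays, more so in wild type. At 2 h it rose by 1.75 ± 0.10 in cko (adjusted p = 1.45e-09) and by 1.81 ± 0.10 in wild type (adjusted p = 1.32e-09), and it fell from 2 h to 12 h in wild type (-1.43 ± 0.10, adjusted p = 2.04e-08). Eif1a, one of the genes for the scanning factor eIF1A, had signals of 869 and 774, 2699 and 2749, and 1896 and 2010.5 in cko, against 639 and 719.5, 2187 and 2156, and 1239.5 and 1175 in wild type. All 4 arrays at 2 h were above all other arrays. At 2 h it rose by 1.71 ± 0.08 in cko (adjusted p = 2e-10) and by 1.66 ± 0.08 in wild type (adjusted p = 3.92e-10).

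Eif1ax, the X-linked gene for eIF1A, rose at 12 h in wild type by 1.50 ± 0.05 (adjusted p = 4.43e-11), and its group means ran from 2756 (wild type 0 h) to 7822 (wild type 12 h). Eif1b, a paralogue of the scanning factor Eif1 whose array values are shown because it was the 1 gene of its group to fall at 2 h, had signals of 2114 and 2227, 868 and 879, and 1671 and 1807 in cko at 0, 2 and 12 h, against 1883 and 1742, 848 and 794, and 2040.0 and 2010.2 in wild type. The 4 arrays at 2 h were the lowest. It fell at 2 h in cko (-1.30 ± 0.07, adjusted p = 1.3e-09) and in wild type (-1.13 ± 0.07, adjusted p = 7.52e-09), and rose from 2 h to 12 h in wild type by 1.29 ± 0.07 (adjusted p = 2.58e-09). With the division term the shared 2 h response was -0.82 for Eif1b (adjusted p = 0.00033) and 0.99 for Eif1ad (adjusted p = 0.00026), and Eif1ad gave -0.63 from 2 h to 12 h (adjusted p = 0.00031).

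Of the 5 joining and late factors, 3 rose and 0 fell at 2 h in each genotype. At 12 h, 2 rose and 2 fell in cko, and 4 rose and 0 fell in wild type. Eif6, on chromosome 2, had signals of 3093 and 4308, 4724 and 5311, and 4742 and 5396 in cko at 0, 2 and 12 h, against 3317 and 3472, 4332 and 4465, and 9131 and 10369 in wild type. The wild-type 12 h arrays stood above all others, and the 2 cko arrays at 0 h were far apart. Its 12 h response was 0.47 ± 0.12 in cko (adjusted p = 0.004) and 1.52 ± 0.12 in wild type (adjusted p = 1.24e-07), and the cko call was lost without cko 0 h replicate 1 (0.23, adjusted p = 0.0667) and when its probe sets were averaged (0.16). The 2 h rises of Eif6, 0.45 in cko and 0.37 in wild type, also rested on single arrays. In cko the call was lost without cko 0 h replicate 1 (0.22) or cko 2 h replicate 2 (0.37). In wild type it was lost without wild-type 0 h replicate 1 (0.34) or wild-type 2 h replicate 2 (0.35). The shared 12 h response of Eif6 with the division term was 1.54 (adjusted p = 4.38e-07). Eif5a2, a paralogue of the hypusine-carrying factor Eif5a, had low signals of 70.5 and 38.4, 37.1 and 53.1, and 90.4 and 92.3 in cko, against 108 and 62.7, 87.6 and 93.6, and 208 and 203 in wild type. It rose at 12 h in wild type by 1.17 ± 0.27 (adjusted p = 0.0025), and cko gave 0.65 ± 0.27 (adjusted p = 0.0543). Eif5b, the GTPase of subunit joining, fell in cko from 2 h to 12 h (-0.78 ± 0.11, adjusted p = 4.34e-05), with group means from 239 (cko 12 h) to 521 (wild type 12 h). Another Eif5b probe set (mean signal 227.9, against 394.9) had cko means of 21.5, 541 and 178.2 at 0, 2 and 12 h. In wild type its means were 13.4, 596.5 and 17. Eif5, the GTPase activator of eIF2, had group means from 10272 (cko 12 h) to 14858 (cko 0 h) by its brightest probe set. Its other probe sets all had higher means at 2 h than at 0 h in both genotypes. The brightest of these went from 709 to 6063 in cko and from 622 to 4938 in wild type. Eif5a had group means from 13200.5 (wild type 0 h) to 23053 (wild type 12 h).

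**Figure D3:**
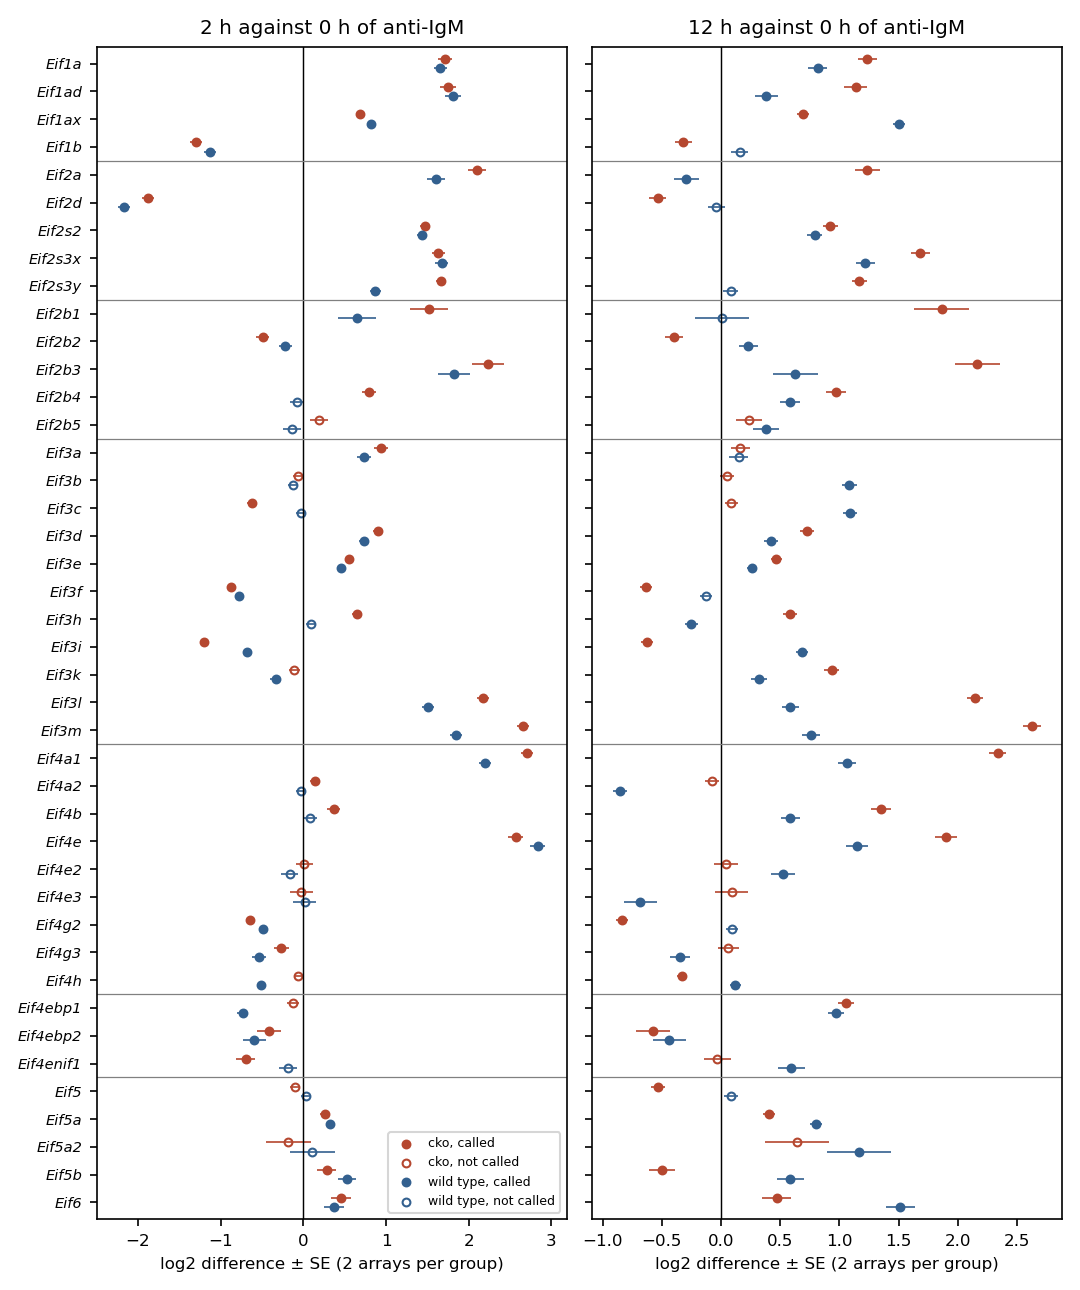
Log2 difference ± SE at 2 h (left) and 12 h (right) against 0 h for the 42 tested genes, with cko in red above wild type in blue, filled where called and open where not, 2 arrays per group. At 2 h Eif4e and Eif4a1 are the furthest right in wild type (2.83 and 2.19) and Eif2d is the furthest left in both genotypes, and at 12 h Eif3m is at 2.63 in cko and 0.76 in wild type.

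From 2 h to 12 h, 12 members rose and 14 fell in cko, against backgrounds of 30.2% and 18.7%, and 20 rose and 18 fell in wild type, against 35.3% and 22%. Eif2d and Eif4ebp1 were the largest rises in both genotypes, followed by Eif3k and Eif4b in cko and by Eif3i and Eif1b in wild type. Eif2a was the largest fall in both, followed by Eif5b, Eif3a and Eif4e in cko and by Eif4e, Eif1ad and Eif2b3 in wild type. Median scaling moved the all-gene share of rises in the wild-type comparison to 46.3%, from 61.6%, and that of the members to 45.7%, from 52.6%.

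Before stimulation, 11 members were higher and 11 lower in cko than in wild type, where 16.3% of all genes were higher and 16% lower. The median difference was 0.00 for the members and 0.02 for all genes. Beside Eif4ebp1, Eif4e was higher (0.55 ± 0.09, adjusted p = 0.000494), as were Eif2b2 (0.54 ± 0.08, adjusted p = 0.000135) and Eif3i (0.49 ± 0.05, adjusted p = 9.95e-06). Those furthest below were Eif4h (-0.58 ± 0.04, adjusted p = 8.03e-07), Eif3m (-0.51 ± 0.07, adjusted p = 0.000148), Eif3h (-0.50 ± 0.06, adjusted p = 2.22e-05) and Eif4a1 (-0.50 ± 0.07, adjusted p = 0.000178). With the probe sets of a gene averaged, the calls of Eif2b2 (0.10), Eif3h (-0.27) and Eif3m (-0.26) were lost. Under median scaling, 25% of the member calls and 33.8% of all calls were higher in cko, in place of 50% and 50.4%.

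At 2 h, 14 members were higher and 5 lower in cko, where 12.8% of all genes were higher and 15.7% lower, and the median difference was 0.09 for the members and -0.02 for all genes. After Eif4ebp1, the highest were Eif2a (0.55 ± 0.11, adjusted p = 0.0017), Eif2b4 (0.47 ± 0.09, adjusted p = 0.00112) and Eif4e2 (0.41 ± 0.10, adjusted p = 0.0071). The lowest were Eif5a2 (-0.81 ± 0.27, adjusted p = 0.0377), Eif4enif1 (-0.39 ± 0.11, adjusted p = 0.0178), Eif3c (-0.30 ± 0.06, adjusted p = 0.00149) and Eif3b (-0.24 ± 0.06, adjusted p = 0.0112). Several of these calls did not survive the loss of an array. The call of Eif4e2 was lost without wild-type 2 h replicate 1 (0.34), those of Eif5a2 (-0.62 to -1) and Eif4enif1 (-0.38 to -0.40) without any of the 4 arrays at 2 h, and that of Eif3b without cko 2 h replicate 2 or either wild-type 2 h array (-0.20 to -0.24). The Eif5a2 call was also lost without either cko 12 h array (adjusted p = 0.0502 and 0.0505). The number of members called lower was 2 without cko 2 h replicate 1 and 1 without any other array at 2 h, and the number called higher was 9 without cko 2 h replicate 2 or either wild-type 2 h array. Averaged over a gene's probe sets, Eif4e2 gave 0.00, Eif2a 0.26, Eif5a2 -0.37 and Eif3c 0.04, none of them called.

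At 12 h, 21 members were higher and 17 lower in cko, where 21.4% of all genes were higher and 29.9% lower, and the median difference was 0.08 for the members and -0.17 for all genes (0.09 after median scaling). The highest were Eif2a (1.58 ± 0.11, adjusted p = 2.94e-08), Eif3m (1.36 ± 0.07, adjusted p = 3.56e-09), Eif4e (1.29 ± 0.09, adjusted p = 4.62e-08) and Eif2b1 (1.29 ± 0.23, adjusted p = 0.000291). The lowest were Eif3b (-1.33 ± 0.06, adjusted p = 1.01e-09), Eif5b (-1.08 ± 0.11, adjusted p = 1.84e-06), Eif5a2 (-1.05 ± 0.27, adjusted p = 0.00494) and Eif4h (-1.03 ± 0.04, adjusted p = 5.03e-10). Another Eif4e probe set, nearly as bright as the one used, had 12 h means of 1380.5 in cko and 1375.3 in wild type. For Eif2a, the other probe set that passed the filter had 12 h means of 409.1 in cko and 309.3 in wild type. All 5 joining and late factors were lower in cko by their brightest probe sets, while Eif5, Eif5a and Eif5b also had probe sets called higher, and the mean of the Eif5b probe sets gave 0.85 (adjusted p = 0.00287). The actin ratio was 19 to 19.1% in these cko arrays and 2.11 to 2.27% in the wild-type arrays. With the division term, the value of the genotype difference comes from the 0 h and 2 h arrays, since the term takes up the 12 h difference. It therefore does not check the 12 h values. That difference was called higher for 11 members and lower for 4. Eif3m gave -0.10 (adjusted p = 0.635), Eif2b1 -0.12 (adjusted p = 0.717), Eif2a 0.30 (adjusted p = 0.0614) and Eif5b -0.12 (adjusted p = 0.415). Eif4e (0.41, adjusted p = 0.00317) and Eif4h (-0.35, adjusted p = 0.00587) were called. Under median scaling 69.7% of the member calls and 64% of all calls were higher in cko, in place of 55.3% and 41.7%.

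**Figure D4:**
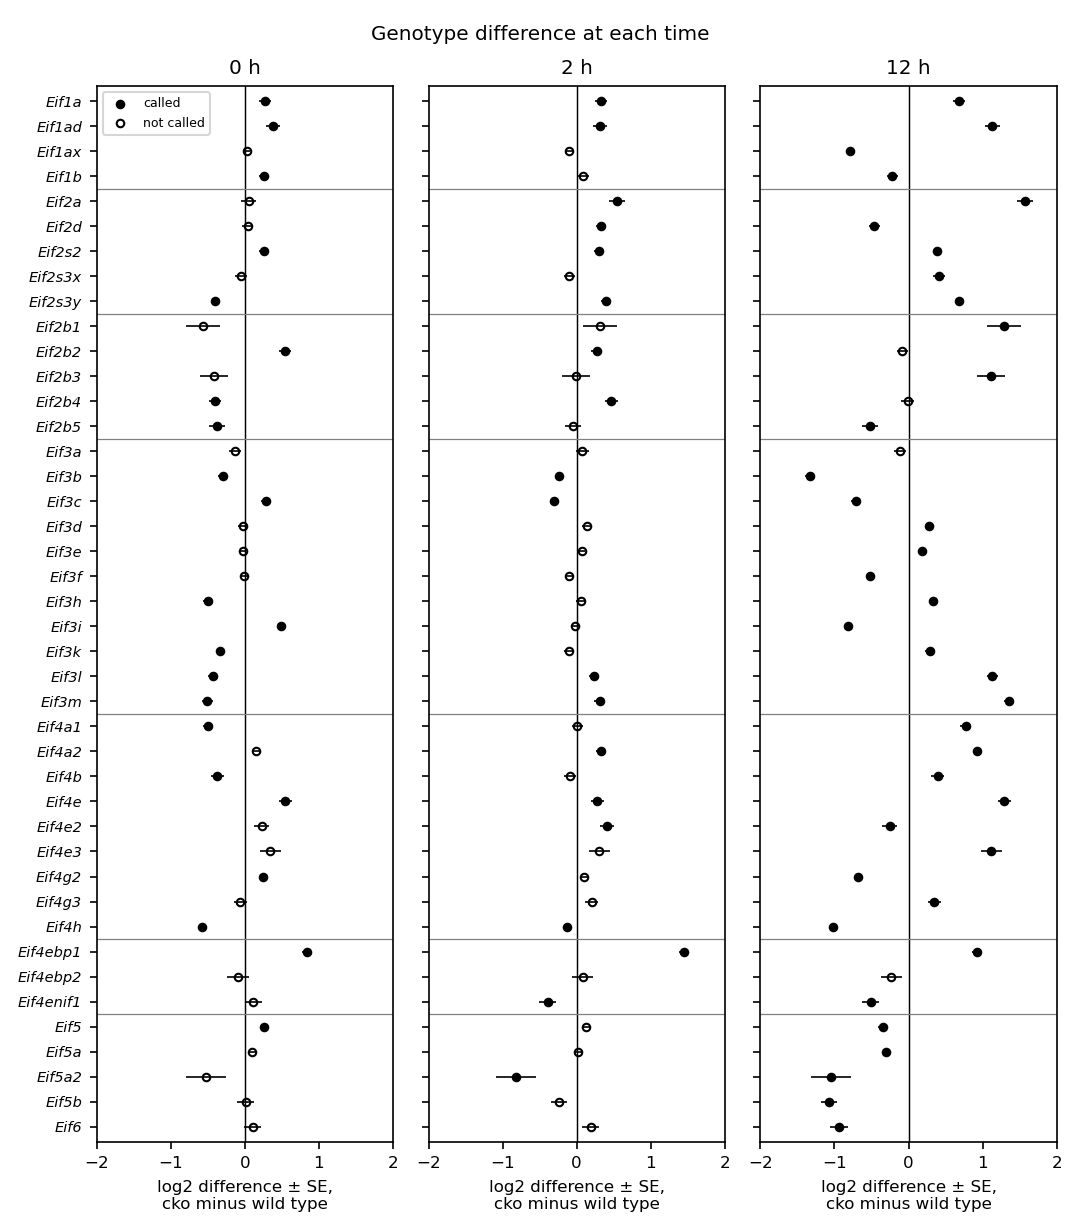
Log2 difference ± SE of cko minus wild type at 0, 2 and 12 h for the 42 tested genes, filled where called and open where not, 2 arrays per group. Eif4ebp1 lies right of 0 at all 3 times, and the spread over genes is widest at 12 h, from -1.33 (Eif3b) to 1.58 (Eif2a).

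The responses of the genotypes were compared by the interaction, the cko response minus the wild-type response. At 2 h it was positive for 9 members and negative for 3, where it was positive for 8.59% and negative for 11.8% of all genes. The largest were Eif2b4 (0.87 ± 0.12, adjusted p = 0.000234), Eif3m (0.82 ± 0.10, adjusted p = 0.000106), Eif2s3y (0.79 ± 0.09, adjusted p = 4.53e-05) and Eif3l (0.66 ± 0.10, adjusted p = 0.000433). The 3 negative ones were Eif3c (-0.59 ± 0.08, adjusted p = 0.000238), Eif3i (-0.51 ± 0.07, adjusted p = 0.000215) and Eif4enif1 (-0.51 ± 0.16, adjusted p = 0.037). Eif4enif1 lost its call without any of 6 arrays, namely both arrays of cko 2 h and of wild type 2 h, cko 0 h replicate 1 and wild-type 0 h replicate 2 (-0.39 to -0.52). Averaged over a gene's probe sets the interaction was 0.47 for Eif3m and 0.11 for Eif3l, neither called. Eif3c had probe sets called in both directions in this interaction. One of its other probe sets had means of 808.2 at 0 h and 1829.7 at 2 h in cko, and 952 and 1307.6 in wild type. Eif4e gave -0.27 ± 0.13 (adjusted p = 0.175), so a difference between its 2 h responses was not detected with these arrays.

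At 12 h the interaction was positive for 20 members and negative for 16, where it was positive for 18.8% and negative for 24.4% of all genes. The most positive were Eif3m (1.87 ± 0.10, adjusted p = 1.32e-08), Eif2b1 (1.86 ± 0.32, adjusted p = 0.000359), Eif3l (1.56 ± 0.10, adjusted p = 4.52e-08) and Eif2b3 (1.54 ± 0.27, adjusted p = 0.000341). The most negative were Eif3i (-1.31 ± 0.07, adjusted p = 1.17e-08), Eif5b (-1.09 ± 0.16, adjusted p = 7.08e-05), Eif6 (-1.05 ± 0.17, adjusted p = 0.000198) and Eif3b (-1.03 ± 0.09, adjusted p = 5.12e-07). Averaged over a gene's probe sets, Eif3l gave 0.54 (adjusted p = 0.106) and Eif5b 0.63 (adjusted p = 0.0922). The other Eif3i probe set had higher group means at 12 h than at 0 h in both genotypes, 6996 and 8303 in cko and 6779 and 10011 in wild type. This contrast crosses the division by the actin ratio, and the additive model with the division term has no interaction, so that genotype by time and division cannot be told apart here. The median over all genes was -0.17, and 0.20 after median scaling, which made 76.7% of the member calls and 71.6% of all calls positive, in place of 55.6% and 43.5%. At 2 h the all-gene share was 61.6% after median scaling, in place of 42%.

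Other genes of the pathway were read from 3 lists. Of 30 tested partners of initiation (kinases and phosphatase subunits of eIF2, eIF4E kinases, poly(A)-binding proteins and related factors), 18 rose and 7 fell at 2 h in cko, and 16 rose and 7 fell in wild type. At 12 h, 14 rose and 7 fell in cko, and 16 rose and 5 fell in wild type. At 2 h these are 60% higher and 23.3% lower in cko and 53.3% and 23.3% in wild type, where 23.8% and 39.2%, and 23.5% and 36.2%, of all genes were. At 12 h they are 46.7% and 23.3% in cko and 53.3% and 16.7% in wild type, beside 25.9% and 33.1%, and 24.8% and 23.1%. Impact, an inhibitor of the eIF2 kinase GCN2, rose at 2 h by 3.79 ± 0.12 in cko (adjusted p = 4.23e-12) and by 2.95 ± 0.12 in wild type (adjusted p = 6.35e-11). Abce1, the ribosome-splitting ATPase, rose by 2.85 ± 0.10 in cko (adjusted p = 1.19e-11) and by 2.46 ± 0.10 in wild type (adjusted p = 6.61e-11). Mknk1, an eIF4E kinase, fell at 2 h in wild type (-1.57 ± 0.21, adjusted p = 1.21e-05). At 12 h Ppp1r15a, the inducible partner of the eIF2 phosphatase, fell in cko (-2.64 ± 0.14, adjusted p = 8.97e-10) and in wild type (-2.53 ± 0.14, adjusted p = 2.69e-09), and Pdcd4, an inhibitor of eIF4A, fell in wild type (-1.15 ± 0.07, adjusted p = 1.26e-08). Denr, a partner in reinitiation, rose at 12 h in cko by 2.46 ± 0.08 (adjusted p = 9.56e-12), and Ncbp2, of the nuclear cap-binding complex, rose at 12 h in wild type by 1.76 ± 0.10 (adjusted p = 4.32e-09).

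Of 20 tested elongation, termination and hypusine genes, 11 rose and 3 fell at 2 h in cko, and 11 rose and 4 fell in wild type, and at 12 h 12 rose and 3 fell in cko, and 9 rose and 2 fell in wild type. At 2 h these are 55% higher and 15% lower in cko and 55% and 20% in wild type, and at 12 h 60% and 15% in cko and 45% and 10% in wild type, with the same backgrounds. Eef1e1, a scaffold of the transfer RNA synthetase complex, rose at 2 h by 2.79 ± 0.06 in cko (adjusted p = 2.21e-13) and by 2.89 ± 0.06 in wild type (adjusted p = 2.62e-13), and at 12 h by 2.02 ± 0.06 in cko (adjusted p = 5.9e-12) and by 1.66 ± 0.06 in wild type (adjusted p = 8.91e-11). Gspt1, the GTPase release factor, rose at 2 h by 3.24 ± 0.14 in cko (adjusted p = 8.05e-11) and by 2.88 ± 0.14 in wild type (adjusted p = 3.62e-10), and was up by 2.71 ± 0.14 at 12 h in cko (adjusted p = 7.58e-10). Etf1, the release factor that reads stop codons, rose at 12 h in wild type by 1.79 ± 0.08 (adjusted p = 5.58e-10). Eef2k, the inhibitory kinase of elongation factor eEF2, fell at 2 h in cko (-3.21 ± 0.23, adjusted p = 2.36e-08) and in wild type (-1.98 ± 0.23, adjusted p = 4.54e-06), and was down at 12 h in cko (-1.63 ± 0.23, adjusted p = 3.39e-05).

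Of 26 tested genes of mTORC1 and S6 kinase, 7 rose and 11 fell at 2 h in cko, and 7 rose and 9 fell in wild type, and at 12 h 7 rose and 9 fell in cko, and 6 rose and 8 fell in wild type. These are 26.9% higher and 42.3% lower at 2 h in cko and 26.9% and 34.6% in wild type, beside the 23.8% and 39.2%, and 23.5% and 36.2%, of all genes, so the counts of this list lie near the background. At 12 h they are 26.9% and 34.6% in cko and 23.1% and 30.8% in wild type, beside 25.9% and 33.1%, and 24.8% and 23.1%. Those named here act as brakes on mTORC1 or sense amino acids. Castor2, an arginine sensor homologue, fell at 2 h in cko (-1.89 ± 0.20, adjusted p = 1.29e-06) and in wild type (-2.13 ± 0.20, adjusted p = 4.26e-07), and was down at 12 h in cko (-1.53 ± 0.20, adjusted p = 1.39e-05). Sesn3, a sestrin, fell in cko at 2 h (-1.85 ± 0.09, adjusted p = 2.32e-10) and 12 h (-1.50 ± 0.09, adjusted p = 3.16e-09), and in wild type at 12 h (-1.02 ± 0.09, adjusted p = 2.88e-07). Sesn1 fell at 12 h in wild type (-1.10 ± 0.07, adjusted p = 1.07e-08), and Nprl3, of the GATOR1 complex, fell there at 2 h (-1.58 ± 0.20, adjusted p = 7.16e-06). Tsc2, of the complex that switches off Rheb, fell at 2 h in cko (-1.92 ± 0.28, adjusted p = 3.04e-05), while Tbc1d7, of the same complex, rose at 12 h in cko by 2.31 ± 0.35 (adjusted p = 4.98e-05). Ddit4, a stress-induced inhibitor of mTORC1, rose at 12 h in wild type by 2.16 ± 0.08 (adjusted p = 8.23e-11).

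Many members were read by several probe sets, and these did not always move the same way. The 43 genes had 120 probe sets, of which 107 passed the filter, and 30 genes had several that passed. In cko 12 h against 2 h, no gene had probe sets called in both directions. The number was 1 in the genotype comparison at 2 h (Eif3c), 3 at 0 h (Eif1a, Eif3l and Eif4a1) and 8 at 12 h (Eif3a, Eif3c, Eif3e, Eif4b, Eif4g3, Eif5, Eif5a and Eif5b). It was 6 in the cko 2 h response, 4 in the wild-type 2 h response, 10 in the cko 12 h response (Eif3i among them), 5 in the wild-type 12 h response and 8 in wild-type 12 h against 2 h. In the interactions it was 2 at 2 h (Eif3c and Eif4a1) and 11 at 12 h. At 12 h, cko against wild type, the brightest Eif5b probe set gave -1.08 and the other 2 gave 2.55 and 1.07. For Eif5a the brightest gave -0.30 and the other 1.31.

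For the genes that moved most, the other probe sets showed the following. At 2 h the other 2 of Eif4a1 gave 4.26 and 4.67 in cko, and 4.65 and 3.62 in wild type, all called higher. The other 3 of Eif4e gave 1.85, 0.82 and -0.24 in cko, and 2.13, 1.16 and 0.25 in wild type, and the last of each was not called. In cko against wild type, Eif4ebp1 gave 0.84, 0.01 and 0.49 at 0 h, 1.45, 1.87 and 1.02 at 2 h, and 0.93, 1.90 and 0.16 at 12 h, with its brightest given before the others, and only 0.01, 0.49 and 0.16 were not called. The other Eif3m probe set gave -0.24 in cko and -0.36 in wild type at 2 h, neither called. The other Eif6 probe set gave -0.15 in cko and 0.71 in wild type at 12 h, called in wild type alone. In Eif2s2, with 6 probe sets, all were called higher at 2 h, from 1.47 to 3.40 in cko and from 1.43 to 4.07 in wild type. Directions given for Eif4e, Eif4a1, Eif2d and Eif2s2 at 2 h thus held for every probe set called, while Eif2b2, Eif4ebp2 and Eif4g2 had probe sets called both ways at 2 h in each genotype.

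**Figure D5:**
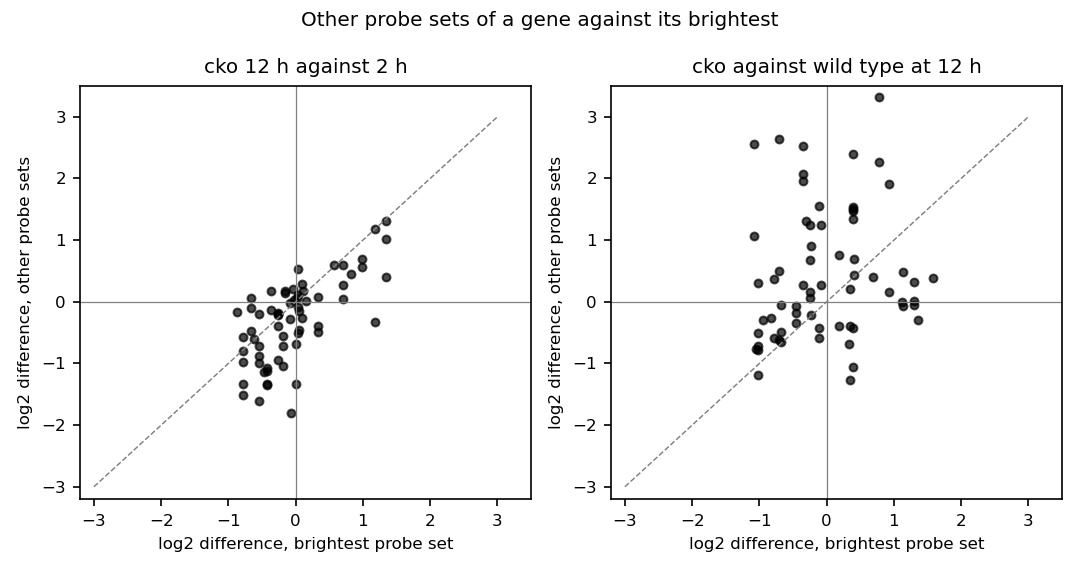
Each point is 1 of 65 further probe sets of a member, with its log2 difference (vertical) against that of the gene's brightest probe set (horizontal) in cko 12 h against 2 h (left) and cko against wild type at 12 h (right), and the dashed line marks equality. In the left plot no gene has probe sets called in opposite directions, and in the right plot 8 genes do.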

How the data were processed

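RNA was measured on Affymetrix whole-genome mouse arrays, 2 per group. The authors deposited 1 intensity per probe set on a linear scale, scaled to a common trimmed mean and made with GCOS 1.4, per the submitters' processing notes. The sources used here do not give the summarisation algorithm. Of 45101 probe sets, 34945 had 1 symbol in the platform annotation, 932 had several and 9160 had none.

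Signals were taken as log2(signal + 16), and probe sets under the 40th percentile of the mean (5.14) were dropped. The probe set with the highest mean log2 value stood for a gene. limma 3.58.1 (R 4.3.3) was fitted to all 12 arrays with a mean for each of 6 groups and a mean-variance trend, giving 6 residual and 7.3 prior degrees of freedom. Simulated data kept each gene's mean over the 6 groups and its residual spread. A step was added to 200 of 12190 genes on the wild-type 2 h arrays. In wild-type 2 h against 0 h, 36% of 50 genes with a log2 step of 0.5, 66% with a step of 1, 92% with a step of 2 and 64% with a step of -1 were recovered, with 10 false calls. The real comparison called 7277 genes, so these rates do not give the power of the reported tests.

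In each role group, array values were given for the 2 members with the largest responses and the 1 with the largest genotype difference at 0 or 2 h, for Eif4a1, Eif4a2 and the 4E-binding protein genes always, and for Eif1b, chosen after its values were seen. In each comparison the 4 largest called rises and 4 largest called falls were named, from the pathway lists too. The members, the lists and the division by actin ratio, drawn at 5%, were chosen with earlier results of these data known. Promoter windows were RefSeq's on GRCm38.p6. Same-numbered arrays did not deviate together (correlations of -0.01 to 0.01 over 15 pairs of groups), so the numbers do not pair the samples. Alternatives were leaving out each array, a replicate block, the division as a term, averaging the probe sets of a gene, no filter or one at the 60th percentile, a pseudocount of 1 or 64, median scaling and quantile normalization.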

Additional observations from a re-analysis of the deposited data

Results flagged for a closer look

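For 10 values the response of cko cells differed from that of wild-type cells by the test of the difference itself, the genotype-by-time interaction (limma, Benjamini-Hochberg adjusted p under 0.05), and each is the cko response minus the wild-type response on the log2 scale. At 12 h against 0 h these were Eif3m (1.87), Eif2b1 (1.86), Eif3l (1.56), Eif2b3 (1.54) and Eif2a (1.53). At 2 h against 0 h they were Eif2b4 (0.87), Eif3m (0.82), Eif2s3y (0.79), Eif3l (0.66) and Eif4ebp1 (0.60). These 10, all positive, are only part of the called interactions. Those were positive for 9 members and negative for 3 at 2 h, beside 8.59% and 11.8% of all genes. At 12 h they were positive for 20 and negative for 16, beside 18.8% and 24.4%. The values at 12 h cross the division of the arrays by actin ratio, and those at 2 h balance it. The ratio itself still rose further by 2 h in cko (1.8 to 1.99%, then 10.6 to 10.8%) than in wild type (3.27 to 3.33%, then 8.41 to 8.51%). Its part in the 2 h values was not tested. Of the 10, Eif3l at both times and Eif3m at 2 h were not called with probe sets averaged over a gene. The other Eif2a probe set that passed the filter had lower means at 12 h than at 0 h in both genotypes. They were 548 at 0 h and 409.1 at 12 h in cko, and 334.3 and 309.3 in wild type.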

How the results depend on the processing

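Of 221 member comparisons examined, 175 of them called, 120 kept their direction and side of the threshold under every alternative run and 101 changed under at least 1. The cause of these changes was not tested. The alternatives include the division term, which does not check cko against wild type at 12 h. The replicate block changed no call or direction among the 221, and left the counts at 2 h at 19 higher and 11 lower in wild type.

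Median scaling moved the members called higher in cko at 0 h to 4, those called lower in cko to 3 at 2 h and 10 at 12 h, the falls in cko to 6 at 2 h and 3 at 12 h, and the negative interactions at 12 h to 7. Without the filter, 3 members were lower in cko at 2 h. With probe sets averaged over a gene, 7 were lower in cko at 0 h, 8 were higher and 2 lower in cko at 2 h, 3 fell at 12 h in wild type, 13 rose from 2 h to 12 h in wild type, 5 interactions were positive at 2 h and 10 were negative at 12 h. With the division as a term, 11 were higher and 4 lower in cko by the genotype difference, whose value comes from the 0 h and 2 h arrays. In the shared responses, 7 fell at 2 h and 3 fell at 12 h, and from 2 h to 12 h 11 rose and 9 fell.

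The genotype difference of the model with the division term had the opposite sign to the 12 h difference for 7 members. They were Eif2b1 (-0.12), Eif2b3 (-0.21), Eif2d (0.18), Eif3l (-0.10), Eif3m (-0.10), Eif4a1 (-0.25) and Eif6 (0.15). Since its value comes from the 0 h and 2 h arrays, this does not check the 12 h directions. With that term, directions turned in the 2 h response for Eif2b1 (-0.33), Eif3i (0.11), Eif4a2 in cko (-0.63) and Eif4h in wild type (0.39). In the cko 12 h response they turned for Eif2a (-0.17), Eif2d (0.03), Eif3i (0.55), Eif4g2 (0.05) and Eif4h (0.23, and 0.09 with median scaling). In wild type from 2 h to 12 h they turned for Eif2b1 (0.56), Eif2b3 (0.03), Eif3l (0.14), Eif3m (0.17) and Eif4h (-0.15). With the mean of probe sets they turned in cko against wild type for Eif1a (-0.04), Eif1ad (-0.15) and Eif3l (0.27) at 0 h, for Eif3c (0.04) and Eif4e2 (0.00) at 2 h and for Eif5b (0.85) at 12 h. They turned there too for the interactions of Eif2a at 2 h (-0.11) and Eif5b at 12 h (0.63), for Eif4ebp2 in cko at 2 h (0.03) and 12 h (0.09), and for Eif4h in wild type at 12 h (-0.45, and -0.13 with quantile normalization).

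Leaving out each array in turn gave these ranges of members called higher and lower. For cko against wild type they were 9 to 12 and 10 to 13 at 0 h, 9 to 15 and 1 to 5 at 2 h, and 20 to 21 and 15 to 17 at 12 h. At 2 h the lowest counts came without cko 2 h replicate 2 or either wild-type 2 h array. For the cko responses they were 20 to 23 and 8 to 10 at 2 h, 22 to 23 and 10 to 10 at 12 h, and 9 to 14 and 12 to 14 from 2 h to 12 h. For the wild-type responses they were 18 to 19 and 10 to 11, 25 to 28 and 4 to 7, and 20 to 20 and 17 to 18. For the interactions they were 8 to 11 and 2 to 4 at 2 h, and 17 to 20 and 15 to 16 at 12 h.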
